A study of Mus musculus with 8 samples.

Results

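Enteroendocrine cells are the scattered hormone-secreting cells of the gut lining, and the genes described here are the 10 that carry their main products in the proximal intestine: Gcg, Gip, Cck, Sct, Sst, Ghrl, Nts, Pyy, Tph1 and Tac1. The members were taken by gene symbol from the study's count table, where 10 of 10 were found among 25239 genes listed. The study sequenced RNA of small intestinal epithelial cells (IECs) from mice lacking CD1d (CD1d-KO, labelled CD1d1/2 KO, in which both Cd1d genes are deleted) and from wild-type mice (WT, labelled C57BL/6Jax), with 4 mice of each genotype and no treatment. CD1d displays lipids to natural killer T (NKT) cells, which need it to develop, so CD1d-KO mice lack these cells throughout life and in every tissue. The study's methods describe young adults of both sexes matched between genotypes, while the labels give no age, sex or litter for any one sample, and they state that the samples came from more than one experiment without saying which. Each sample held 150000 viable cells sorted from crypt preparations of the proximal small intestine by the epithelial marker EpCAM after exclusion of leukocyte (CD45), endothelial (CD31) and erythroid (Ter119) cells. The comparison addresses whether the epithelium of mice without CD1d and NKT cells carries different amounts of these hormone transcripts.

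An enteroendocrine cell senses nutrients at its luminal face and releases peptides or serotonin from dense-core granules at its base, where they reach nerves, blood and neighbouring cells. Its descent from crypt progenitors runs through the transcription factor Neurog3, and prohormone convertases then cut each precursor into its active peptides. Cells of the duodenum and jejunum are classically known for GIP, cholecystokinin, secretin, somatostatin, ghrelin and serotonin, while GLP-1, neurotensin and peptide YY grow more common further down the gut.

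The sequence just upstream of the start site is shown for 4 members, namely the 3 most abundant per length (Gip, Sst and Gcg) and the member with the greatest difference between samples (Nts). The stretches are RefSeq sequence of build GRCm38.p6, the assembly also called mm10 that the count table uses, and each runs 5′ to 3′ on the gene's own strand over bases -150 to -1, where -1 is the base before the annotated start. Capitals mark the letters AGATAA of a GATA motif, TGACGTCA of a cyclic AMP response element (CRE), TATAAA of a TATA box or CATCTG of an E-box, each searched on both strands, so that a match on the other strand reads as its reverse complement.
Gip promoter: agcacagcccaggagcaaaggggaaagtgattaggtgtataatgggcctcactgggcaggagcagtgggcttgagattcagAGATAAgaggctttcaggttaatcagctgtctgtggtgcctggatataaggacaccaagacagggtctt
Sst promoter: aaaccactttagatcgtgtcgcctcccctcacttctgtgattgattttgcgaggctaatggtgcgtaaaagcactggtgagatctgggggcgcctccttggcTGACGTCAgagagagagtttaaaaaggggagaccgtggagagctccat
Nts promoter: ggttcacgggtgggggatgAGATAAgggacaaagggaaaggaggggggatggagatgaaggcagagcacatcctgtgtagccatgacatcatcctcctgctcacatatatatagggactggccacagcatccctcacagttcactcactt
Gcg promoter: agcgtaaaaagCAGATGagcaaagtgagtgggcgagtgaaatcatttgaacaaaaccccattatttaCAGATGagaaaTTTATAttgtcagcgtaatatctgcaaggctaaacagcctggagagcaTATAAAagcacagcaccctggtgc

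The Gip stretch lies at chr11:96024395-96024544 on the plus strand, the Sst stretch at chr16:23890845-23890994, the Nts stretch at chr10:102490419-102490568 and the Gcg stretch at chr2:62483654-62483803, the last 3 on the minus strand. Gip held the GATA letters at bases -69 to -64 and Nts held them at -131 to -126. The same letters occur in the 150 bases upstream of 5.65% of 32851 annotated mouse start sites. Sst held the full CRE at -48 to -41, a run present in 1.36% of those stretches. Gcg held TATAAA at -24 to -19, found in 7.57% of stretches, and again on the other strand at -72 to -67. Its 2 E-box matches, at -139 to -134 and -83 to -78, were on the other strand, and those letters occur in 8.81% of stretches. No 2 of these matches overlap. A match describes letters only, and no factor binding was measured.

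The samples were sequenced to between 29743061 and 31629435 counted fragments in CD1d-KO and between 23610266 and 29763051 in WT. Cd1d1 carried 8, 3, 5 and 0 raw counts in CD1d-KO 1 to 4 against 81, 70, 94 and 50 in WT 1 to 4 (log2 fold change -4.34 ± 0.45 SE, adjusted p = 1.09e-18 by DESeq2 with Benjamini-Hochberg adjustment), so the target gene followed the labels. Epithelial genes were at similar summed levels in both genotypes, at 324198 to 350964 normalised counts in CD1d-KO and 315275 to 352867 in WT. CD1d-KO 1 and CD1d-KO 2 carried Y-linked transcripts (Ddx3y at 1722 and 2053 normalised counts) and little Xist, while the other 6 samples had the reverse pattern. By these transcripts CD1d-KO 1 and CD1d-KO 2 read as male, and the other 6 samples, all 4 WT among them, as female. The sequenced genotypes were thus not matched for sex, unlike the matching in the study's methods. This difference cannot be told apart from anything else that sets CD1d-KO 1 and CD1d-KO 2 apart. A list of 14 stomach genes summed to 16572 normalised counts in WT 3 and 7316 in WT 4, against 2073 and 2078 in WT 1 and WT 2 and 309 to 1058 in CD1d-KO. A list of 12 leukocyte genes summed to 816 to 958 in CD1d-KO and 1007 to 2275 in WT, highest in WT 1. The largest part on average was Itgam, at 758 ± 70.3 among CD1d-KO samples and 1003 ± 135 among WT samples (SD, n = 4 each). In that list, 4 of 11 tested genes were called lower, where 2.38% of all tested genes were. Its CD45 gene Ptprc averaged 54.5 ± 23.7 among CD1d-KO samples and 96.3 ± 20.3 among WT samples (SD, n = 4 each; adjusted p = 0.0879). Of the markers of other hormone-bearing tissues, the glial Sox10 and neuronal Stmn2 and the islet genes Ins1, Ins2 and Slc30a8 had no count in any sample.

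No difference between CD1d-KO and WT was detected for any of the 10 hormone genes. DESeq2 called 0 of 10 at an adjusted p under 0.05, where it called 4.03% of 15446 tested genes, and 0 of 10 had an unadjusted p under 0.05, where 15.3% of tested genes did. edgeR's quasi-likelihood test also called 0 of 10, against 1.66% of 13744 genes. The normalised counts of the genotypes overlapped for every member, while 9.61% of all tested genes showed no overlap. The log2 fold change was above 0 for 7 of 10 members, with a median of 0.09 beside 0.00 over all tested genes. Together the 10 genes took 0.0519% to 0.0979% of all counts in CD1d-KO samples and 0.0529% to 0.0941% in WT samples, and their summed normalised counts were 22287 ± 7132 (SD, n = 4) and 20250 ± 5997. Because each sample is a bulk of sorted cells, fewer cells of a hormone type and less RNA per cell cannot be told apart. The spread between mice was wide, and in both genotypes the highest sample exceeded the lowest by more than the genotype means differed for 10 of 10 members. The 95% interval of the fold stayed within 2-fold in either direction for 5 of 10 members (Gip, Sct, Ghrl, Tph1 and Tac1), and for each of the others it reached past 2-fold in one direction.

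**Figure D1:**
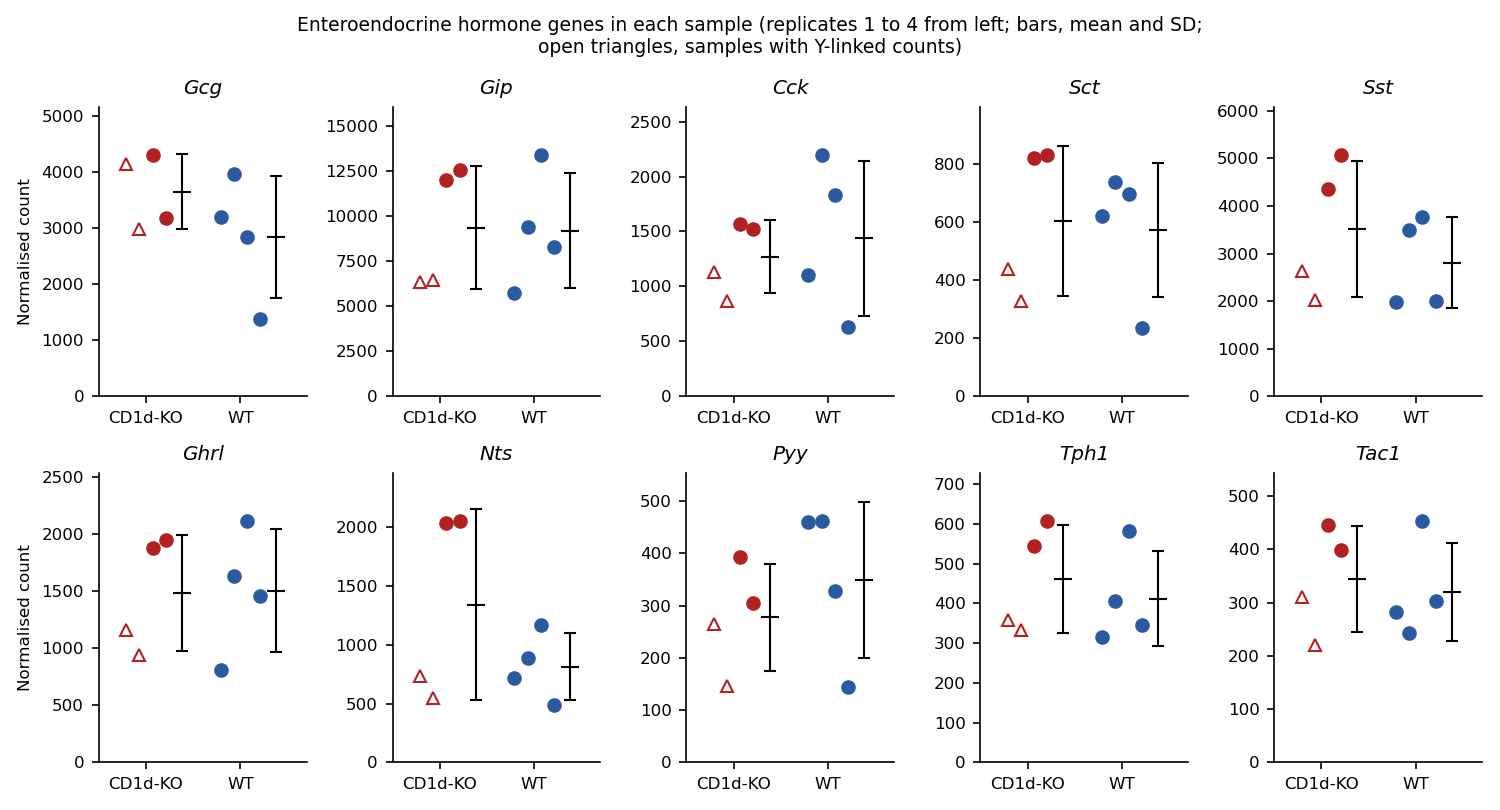
Normalised counts (vertical axes, linear from 0, a separate scale for each gene) of the 10 hormone genes in CD1d-KO (red) and WT (blue) mice, 1 point a sample in replicate order, with mean and SD to the right of each group. Open triangles mark CD1d-KO 1 and CD1d-KO 2, which carried Y-linked transcripts and lay below the other CD1d-KO samples for 9 of 10 genes, while the genotypes overlapped for all 10.

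Gip, which encodes the incretin glucose-dependent insulinotropic polypeptide of K cells (chr11:96024545-96030828, plus strand), was the most abundant member. Its normalised counts were 6318, 6460, 11995 and 12558 in CD1d-KO 1 to 4. In WT 1 to 4 they were 5705, 9387, 13355 and 8286. The lowest and the highest sample were both WT, and the CD1d-KO samples fell into a low and a high pair. The means of 9333 ± 3407 and 9183 ± 3180 (SD, n = 4 each) differed by a log2 fold change of 0.02 ± 0.34 (SE, adjusted p = 0.989), with a 95% interval of the fold from 0.644 to 1.605.

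Gcg encodes proglucagon (chr2:62474530-62483653, minus strand), which L cells cut into GLP-1 and GLP-2. It reached 4149, 2987, 4304 and 3187 normalised counts in CD1d-KO 1 to 4, and 3208, 3970, 2850 and 1373 in WT 1 to 4. WT 4 lay below every other sample, and all other values shared 1 range. The means of 3657 ± 666 in CD1d-KO and 2850 ± 1090 in WT gave a log2 fold change of 0.36 ± 0.33 that did not pass the test (adjusted p = 0.705). Gcg was the only member for which CD1d-KO 1 and CD1d-KO 2 did not both lie below CD1d-KO 3 and CD1d-KO 4.

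Cck, the precursor of cholecystokinin, which contracts the gallbladder and stimulates pancreatic enzyme release (chr9:121489824-121495694, minus strand), was at 1131, 867, 1565 and 1523 in CD1d-KO 1 to 4. The WT samples held 1102, 2193, 1827 and 632. WT samples gave both extremes and enclosed all 4 CD1d-KO samples. The log2 fold change was -0.18 ± 0.42 (adjusted p = 0.923). Sct, which encodes secretin, the signal for pancreatic bicarbonate (chr7:141278329-141279133, minus strand), was at 437, 330, 820 and 830 in CD1d-KO and at 621, 739, 697 and 235 in WT. Its log2 fold change was 0.08 ± 0.47 (adjusted p = 0.976). As with Cck, WT 4 was the lowest sample of all.

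Sst, the somatostatin gene of inhibitory D cells (chr16:23889581-23890844, minus strand), measured 2641, 2026, 4347 and 5063 normalised counts in CD1d-KO 1 to 4. WT 1 to 4 had 1974, 3489, 3775 and 1995. The highest values were in CD1d-KO 3 and CD1d-KO 4, and the lowest were in WT 1, WT 4 and CD1d-KO 2. The log2 fold change was 0.33 ± 0.38 (adjusted p = 0.793), with a 95% interval of the fold from 0.746 to 2.10. Ghrl encodes ghrelin, the appetite-stimulating peptide that the stomach makes in larger amounts (chr6:113716119-113719911, minus strand). Its normalised counts were 1160, 943, 1879 and 1941 in CD1d-KO, against 809, 1630, 2110 and 1457 in WT. The genotype means of 1481 ± 504 and 1501 ± 538 were nearly equal (log2 fold change -0.02 ± 0.37, adjusted p = 0.992). Sst and Ghrl are also stomach products, and the stomach list was highest in WT 3, which held the most Ghrl of any sample, while WT 4, second on that list, was among the 3 lowest samples for Sst and in the middle for Ghrl. With the stomach score as a second term, the log2 fold changes moved to 1.09 for Sst (adjusted p = 0.705), 0.95 for Ghrl (adjusted p = 0.678), 1.03 for Gip (adjusted p = 0.593), 1.61 for Nts (adjusted p = 0.653), 0.99 for Tph1 (adjusted p = 0.123) and 0.86 for Tac1 (adjusted p = 0.343), none of them called. In the same fit Gcg and Pyy moved down, to -0.18 (adjusted p = 0.972) and -0.63 (adjusted p = 0.920). Sct stood at 0.40 (adjusted p = 0.959) and Cck at 0.03 (adjusted p = 0.998), and none of these was called either. The score differed between the genotypes, so the terms cannot be fully told apart.

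Nts, the neurotensin gene (chr10:102481756-102490418, minus strand), had the largest log2 fold change of the 10. It stood at 735, 544, 2031 and 2048 normalised counts in CD1d-KO 1 to 4, against 717, 886, 1164 and 489 in WT 1 to 4. CD1d-KO 3 and CD1d-KO 4 lay above every WT sample, whereas CD1d-KO 1 and CD1d-KO 2 lay among them. The means of 1339 ± 812 and 814 ± 285 gave a log2 fold change of 0.72 ± 0.53, which did not pass the test (adjusted p = 0.582), and the 95% interval of the fold ran from 0.802 to 3.38. Pyy, which encodes the L cell peptide that slows transit and appetite (chr11:102106676-102107832, minus strand), had the most negative log2 fold change. Its counts were 266, 147, 392 and 305 in CD1d-KO, against 460, 461, 329 and 144 in WT. WT 1 and WT 2 lay above all CD1d-KO samples and WT 4 lay below them all. The difference was -0.33 ± 0.45 on the log2 scale (adjusted p = 0.833), and a raw count of 118 fragments for Pyy in WT 4 was the lowest of any member in any sample.

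Tph1, the rate-limiting enzyme of serotonin synthesis in enterochromaffin cells (chr7:46644641-46672537, minus strand), stood at 359, 334, 544 and 607 in CD1d-KO 1 to 4 and at 315, 406, 582 and 346 in WT 1 to 4. Tac1, the precursor of substance P, which the same cell type can hold (chr6:7555061-7562978, plus strand), stood at 310, 221, 446 and 398 in CD1d-KO and at 283, 243, 453 and 303 in WT. Both genes were high in CD1d-KO 3, CD1d-KO 4 and WT 3. They had the narrowest errors of the members, with log2 fold changes of 0.16 ± 0.22 for Tph1 (adjusted p = 0.828) and 0.10 ± 0.22 for Tac1 (adjusted p = 0.913). The 95% intervals of the fold were 0.832 to 1.502 for Tph1 and 0.792 to 1.45 for Tac1.

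Several members shared the same high and low mice. For 6 of 10 (Gip, Sst, Ghrl, Nts, Tph1 and Tac1) the 3 highest samples were CD1d-KO 3, CD1d-KO 4 and WT 3. CD1d-KO 2 was the lowest CD1d-KO sample for 9 of 10 members, all except Gip, and WT 4 was the lowest WT sample for 5 of 10 (Gcg, Cck, Sct, Nts and Pyy). The other 4 genes had another sample among their 3 highest, with Cck and Pyy highest in WT 2, Gcg highest in CD1d-KO 3 and Sct highest in CD1d-KO 4. Sct differed from the 6 only by WT 2 (739) in place of WT 3 (697). These patterns were picked after the values were seen, and the share of all genes that show them was not computed.

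**Figure D2:**
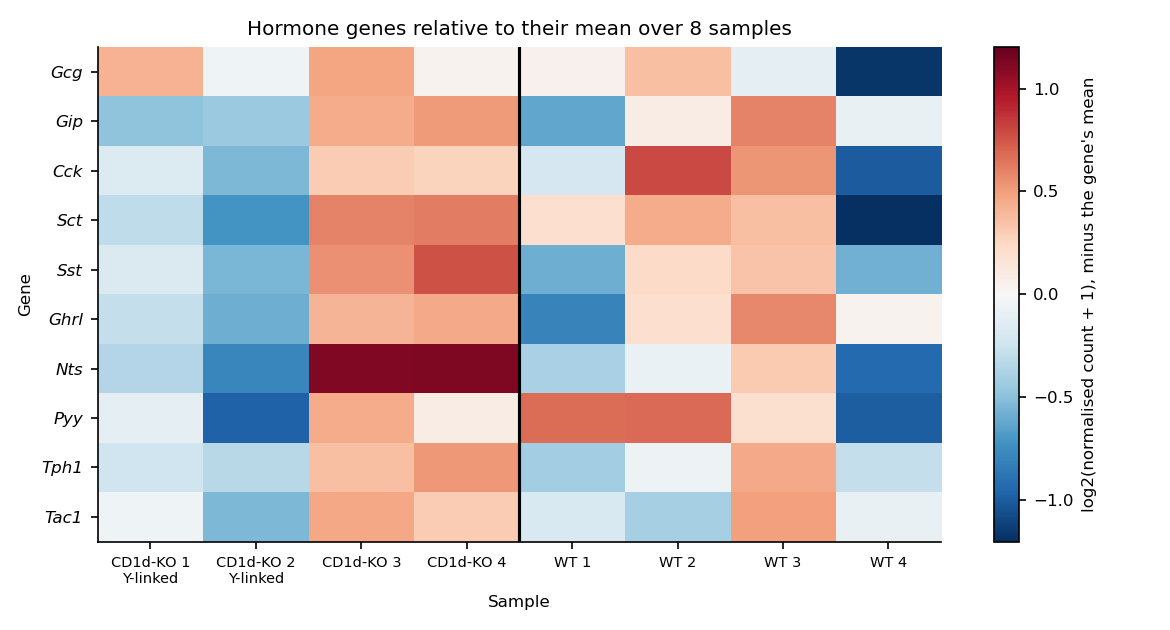
Levels of the 10 hormone genes (rows) in the 8 samples (columns), drawn as log2(normalised count + 1) minus the gene's mean over the 8 samples (red above the mean, blue below). CD1d-KO 3, CD1d-KO 4 and WT 3 are above the mean in most rows, and CD1d-KO 2 and WT 4 are below it in most rows.

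On a scale that divides by exon length, fragments per kilobase of exon scaled to the sample's total count (FPKM), the members covered a wide range of levels. Gip was at 498 ± 176 FPKM (CD1d-KO) and 492 ± 167 FPKM (WT, SD, n = 4 each), and lay above Sst in 8 of 8 samples without any overlap of their ranges. Sst followed at 204 ± 80.2 and 163 ± 54.5, above Gcg in 8 of 8 samples. Gcg, at 117 ± 21.5 and 91.1 ± 34.9, exceeded Ghrl, at 82.7 ± 27.3 and 84.0 ± 29.5, in only 5 of 8 samples, so this neighbouring pair did not differ beyond its spread. The levels of Cck then lay at 25.6 to 88.8 FPKM over all samples, those of Sct at 15.2 to 53.2, those of Nts at 14.4 to 59.7 and those of Pyy at 8.91 to 29.2. Cck lay below Ghrl and above Sct in 8 of 8 samples although the ranges overlapped, while Sct exceeded Nts, and Nts exceeded Pyy, in 6 of 8. At the bottom, Pyy exceeded Tac1 (7.36 to 15.0 FPKM) in 7 of 8 samples and Tac1 exceeded Tph1 (2.35 to 4.39) in 8 of 8, the latter without overlap.

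The make-up of the hormone transcripts was dominated by the same genes in every sample. Gip supplied 41.6% to 58.3% of the members' summed FPKM and Sst 15.2% to 21.2%. Gcg ranged from 5.74% in WT 4 to 16.2% in CD1d-KO 1. Nts supplied 4.41% and 4.34% in CD1d-KO 3 and CD1d-KO 4 against 1.89% to 2.96% in the other samples, so its share as well as its level was highest there. Pyy, known as a hormone of the lower gut, supplied 1.17% to 3.995%. A list of 7 distal intestine genes summed to 24395 normalised counts in CD1d-KO 3, its highest sample, and 12490 in CD1d-KO 4, its lowest. Over the WT samples it ranged from 16002 to 19513. The largest part of this list on average was 1 gene, Fabp6, at 11339 ± 5554 among CD1d-KO samples and 13236 ± 1231 among WT samples (SD, n = 4 each). A list of 8 proximal intestine genes ranged from 39206 to 68814 in CD1d-KO, highest in CD1d-KO 3, and from 39625 to 52451 in WT. Whether position along the gut bears on these shares was not tested.

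**Figure D3:**
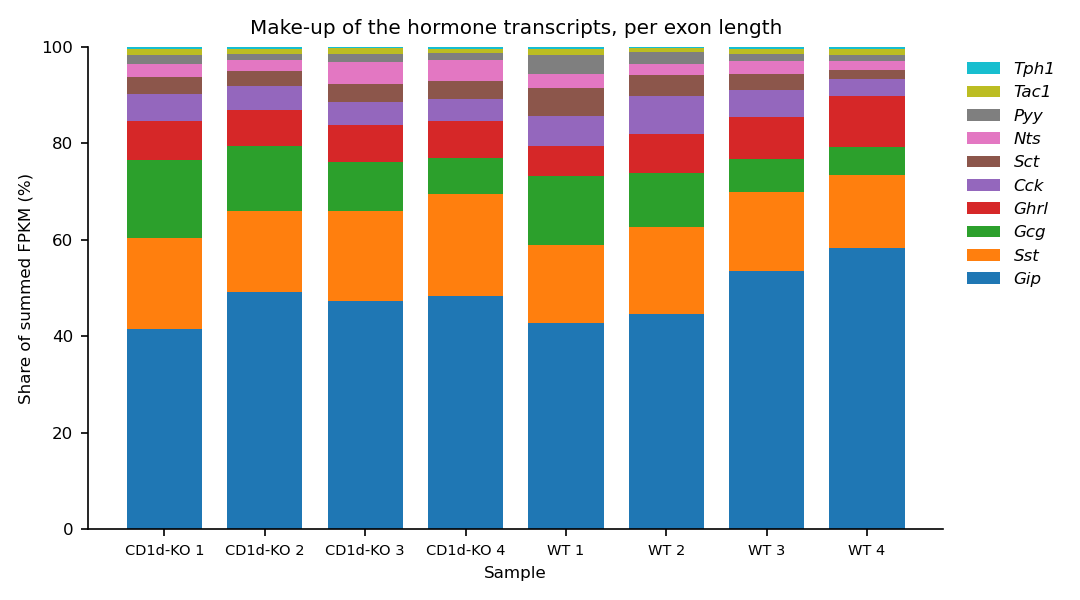
Share of each hormone gene in the summed FPKM of the 10 members (vertical axis, percent, from 0 to 100) in each of the 8 samples (horizontal axis), stacked from the most abundant gene at the bottom. Gip is the largest block of every bar, and Gcg ranges from 5.74% in WT 4 to 16.2% in CD1d-KO 1.

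Since CD1d-KO 1 and CD1d-KO 2 alone carried Y-linked transcripts, the comparison was repeated without them, with 2 CD1d-KO and 4 WT samples. Nts then was higher in CD1d-KO by a log2 fold change of 1.33 ± 0.38 (SE, adjusted p = 0.0226 by DESeq2), the 1 of 10 members called where 2.57% of 14473 genes were called and 1.22% were called higher. All 10 log2 fold changes were above 0, from 0.00 for Pyy to 1.33 for Nts, with a median of 0.41 beside 0.00 over all genes tested there. Sst followed Nts at 0.75 ± 0.37 (adjusted p = 0.442) and Sct at 0.53 ± 0.52 (adjusted p = 0.817), neither of which passed. With WT 4, the lowest Nts sample, left out as well, the Nts value was 1.15 (adjusted p = 9.98e-10). Nts was again the 1 member called, where 2.14% of 14005 genes were. This choice was added after seeing the data, and the spread rests on 2 samples against 3. The 2 CD1d-KO samples left held nearly equal Nts levels (2031 and 2048 normalised counts), so this p-value is not taken as added support. The Nts call with WT 4 kept rests on the same 2 CD1d-KO samples and carries the same limit.

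Within CD1d-KO, the samples with Y-linked transcripts lay below both others for 9 of 10 members, a pattern that 23.2% of all tested genes showed. The mean of CD1d-KO 3 and CD1d-KO 4 was 1.05 times that of CD1d-KO 1 and CD1d-KO 2 for Gcg and 3.19 times for Nts, the extremes of the 10. In a fit with both terms, the Y-linked term was called for 1 of 10 members, Nts, at -1.67 ± 0.41 (adjusted p = 0.00778), against 1.61% of 13630 genes. The genotype term beside it gave Nts 1.32 (adjusted p = 0.0113), where 3.04% of 13994 genes were called. Because no WT sample carried these transcripts, the genotype term sets CD1d-KO 3 and CD1d-KO 4 against WT. It thus repeats the contrast made without CD1d-KO 1 and CD1d-KO 2, and its Nts call is no separate support. The Y-linked term sets CD1d-KO 1 and CD1d-KO 2 against CD1d-KO 3 and CD1d-KO 4. Between those pairs sex, experiment and mouse cannot be told apart.

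**Figure D4:**
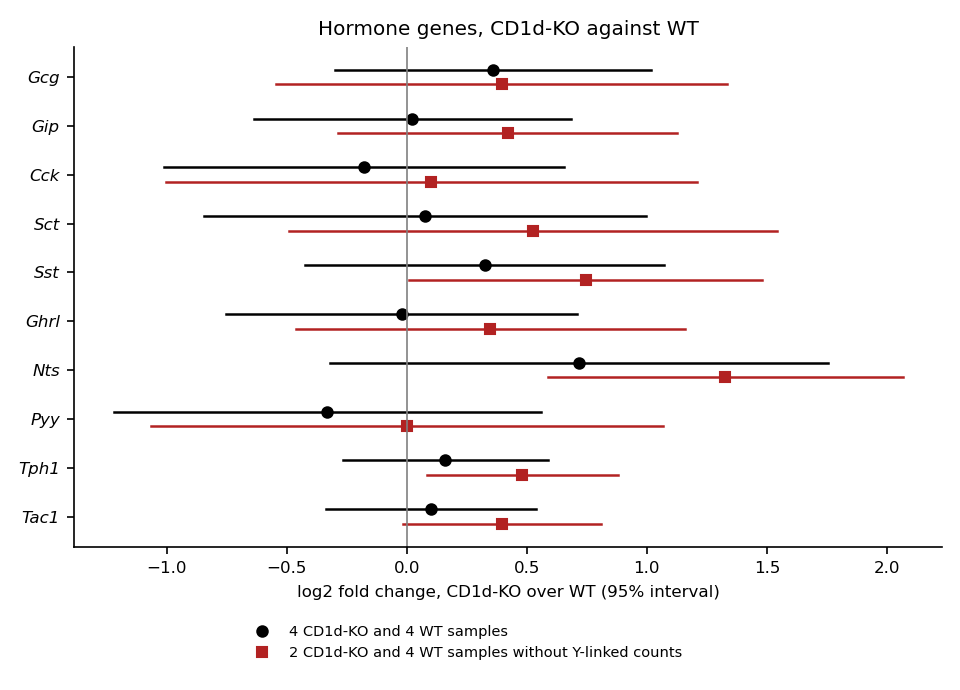
Log2 fold change of CD1d-KO over WT (horizontal axis) for each hormone gene with its 95% interval, from all 8 samples (black circles) and from the 2 CD1d-KO and 4 WT samples without Y-linked transcripts (red squares). All 10 black intervals cross 0, and the red values lie at or above 0, with Nts at 1.33.

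The genes that build the secretory machinery of these cells gave no call in the comparison of all samples. Of 19 granule protein genes, 0 were called and the median log2 fold change was 0.13. Chga, which encodes chromogranin A, the general marker of the lineage, measured 2948, 2212, 3834 and 3707 normalised counts in CD1d-KO and 2346, 3140, 3594 and 2534 in WT (log2 fold change 0.13 ± 0.23, adjusted p = 0.879). Its relative Chgb was at 11988, 9253, 17393 and 15173 in CD1d-KO, against 9535, 11231, 13961 and 9070 in WT. The same mice as for the hormones were low, namely CD1d-KO 2, WT 1 and WT 4. Chgb had a log2 fold change of 0.30 ± 0.24 (adjusted p = 0.633), and without the samples carrying Y-linked transcripts it was 0.57 and called (adjusted p = 0.0044), while with the Y-linked term beside genotype the same value was not called (adjusted p = 0.181). Scg3, a granule sorting protein, stood at 0.36 ± 0.18 (adjusted p = 0.322). In CD1d-KO, both samples with Y-linked transcripts lay below both others for 14 of 19 granule genes, against 23.2% of all tested genes.

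Among 7 prohormone processing genes 0 were called. Pcsk1, the convertase that cuts proglucagon into GLP-1 and also acts on other gut precursors, was at 942, 798, 1204 and 1207 normalised counts in CD1d-KO and 749, 866, 1005 and 687 in WT. The highest CD1d-KO pair lay above all WT samples, and the other pair lay among them. Its log2 fold change was 0.33 ± 0.15 (adjusted p = 0.252), and 0.54 without the samples carrying Y-linked transcripts, where it was called (adjusted p = 0.00933). Pcsk2, the convertase that makes glucagon in pancreatic alpha cells, was nearly absent, with 2.68 to 19.2 normalised counts in CD1d-KO and 1.96 to 65.0 in WT. Mboat4, the acyltransferase that activates ghrelin, averaged 49.9 ± 17.0 and 49.8 ± 14.6 (SD, n = 4 each; log2 fold change -0.0029 ± 0.31, adjusted p = 0.999).

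The transcription factors of the lineage gave 0 calls of 26 and a median log2 fold change of 0.08. Neurog3, the factor that starts the endocrine programme, was at 426, 196, 504 and 376 in CD1d-KO, against 275, 365, 358 and 273 in WT. CD1d-KO samples gave both the lowest and the highest value. The log2 fold change was 0.24 ± 0.23 (adjusted p = 0.705). Neurod1, which acts after Neurog3, was at means of 340 ± 79.1 (CD1d-KO) and 343 ± 78.0 (WT), with a log2 fold change of -0.02 ± 0.19 (adjusted p = 0.987). The factors with the most extreme test statistics were Tox3, at 0.22 ± 0.08 (adjusted p = 0.118), and Pdx1, a factor of duodenum and pancreas, at -0.41 ± 0.21 (adjusted p = 0.335). Pdx1 was called without WT 1, at -0.60 (adjusted p = 0.00951), and stood at -0.0014 without WT 3 and WT 4 (adjusted p = 0.999). Both samples with Y-linked transcripts lay below both other CD1d-KO samples for 8 of 26 factors, against 23.2% of all tested genes.

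In serotonin handling, 1 of 7 tested genes was called higher, where 1.65% of all tested genes were, and 0 were called lower. Slc6a4, the plasma membrane transporter that clears serotonin into epithelial cells, was at 2202, 2436, 2519 and 2502 normalised counts in CD1d-KO 1 to 4. WT 1 to 4 had 1822, 1960, 2074 and 2049. Every CD1d-KO sample exceeded every WT sample, and Slc6a4 rose by a log2 fold change of 0.29 ± 0.07 (adjusted p = 0.00382). Its call was lost with the stomach score as a second term, at 0.44 (adjusted p = 0.118). Ddc, the decarboxylase that completes serotonin, had a log2 fold change of 0.18 ± 0.10 (adjusted p = 0.413), and Slc18a1, which loads it into granules, of -0.04 ± 0.21 (adjusted p = 0.975). Maoa, an X-linked gene for an enzyme that degrades serotonin, stood at 0.22 ± 0.10 (adjusted p = 0.222). It was called under 5 of 20 alternatives, among them without CD1d-KO 1, at 0.30 (adjusted p = 0.0111), and with the replicate block, at 0.21 (adjusted p = 0.0235). The brain enzyme gene Tph2 was near 0, with means of 0.46 in CD1d-KO and 0 in WT.

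Of 5 genes for enzymes that degrade peptide hormones, 1 was called higher, where 1.65% of all tested genes were, and 0 were called lower. Mme encodes neprilysin, a membrane peptidase that cuts small peptides such as substance P and neurotensin. It was at 5674, 7679, 6683 and 8447 normalised counts in CD1d-KO 1 to 4 and at 3635, 5125, 5370 and 4450 in WT 1 to 4. No WT sample reached the lowest CD1d-KO sample. Mme rose by a log2 fold change of 0.62 ± 0.14 (adjusted p = 0.000563), and it was called under 20 of 20 alternatives, with an adjusted p of at most 0.0493. Dpp4, the enzyme that inactivates GLP-1 and GIP, averaged 7895 ± 1104 in CD1d-KO and 7206 ± 421 in WT (log2 fold change 0.13 ± 0.10, adjusted p = 0.593). Ece1, which also cuts substance P, stood at 0.11 ± 0.06 (adjusted p = 0.349).

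Other gut peptides included 1 of 8 tested genes called lower and 0 called higher, where 2.38% and 1.65% of all tested genes were. Gast, the gastrin gene of the stomach antrum and upper duodenum, was at 5.89, 47.2, 223 and 22.0 normalised counts in WT 1 to 4. In CD1d-KO 1 to 4 it was at 0.894, 3.81, 1.96 and 5.76, each below the lowest WT sample. Gast fell by 4.59 on the log2 scale (SE 1.15, adjusted p = 0.0041), and by 3.02 without WT 3 (adjusted p = 0.0103). The stomach list was also higher in each WT sample than in any CD1d-KO sample and highest in WT 3. WT 2, however, held more Gast than WT 4 and less of the stomach list (2078 against 7316 normalised counts). The cause of the Gast difference was not tested. Of the 12 tested stomach genes, 6 were called lower and 1 higher, against the same shares of all tested genes. With the stomach score as a second term the Gast value was -0.97 (adjusted p = 0.938). Without the samples carrying Y-linked transcripts it was -4.27 ± 1.54 (SE, adjusted p = 0.129), close to the value from all samples but with a wider error. Neither fit called Gast.

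Insl5, a peptide of colonic L cells, was scarce, with raw counts of 11, 7, 10 and 3 in CD1d-KO 1 to 4 against 0, 1, 0 and 1 in WT 1 to 4. The ratio of the summed counts, scaled to depth, was 14 with a 95% counting interval from 3.56 to 121, which covers counting error only, since the libraries carried no molecular identifiers and reads are no count of molecules. The DESeq2 log2 fold change of 3.79 ± 1.25 did not pass the threshold (adjusted p = 0.0565, and 0.0557 to 0.889 over 11 alternatives that tested it). Vip and Npy, peptides of enteric neurons, had no count in any sample. Guca2a and Guca2b, which encode the epithelial peptides guanylin and uroguanylin, had log2 fold changes of 0.26 ± 0.24 (adjusted p = 0.688) and 0.50 ± 0.25 (adjusted p = 0.329).

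**Figure D5:**
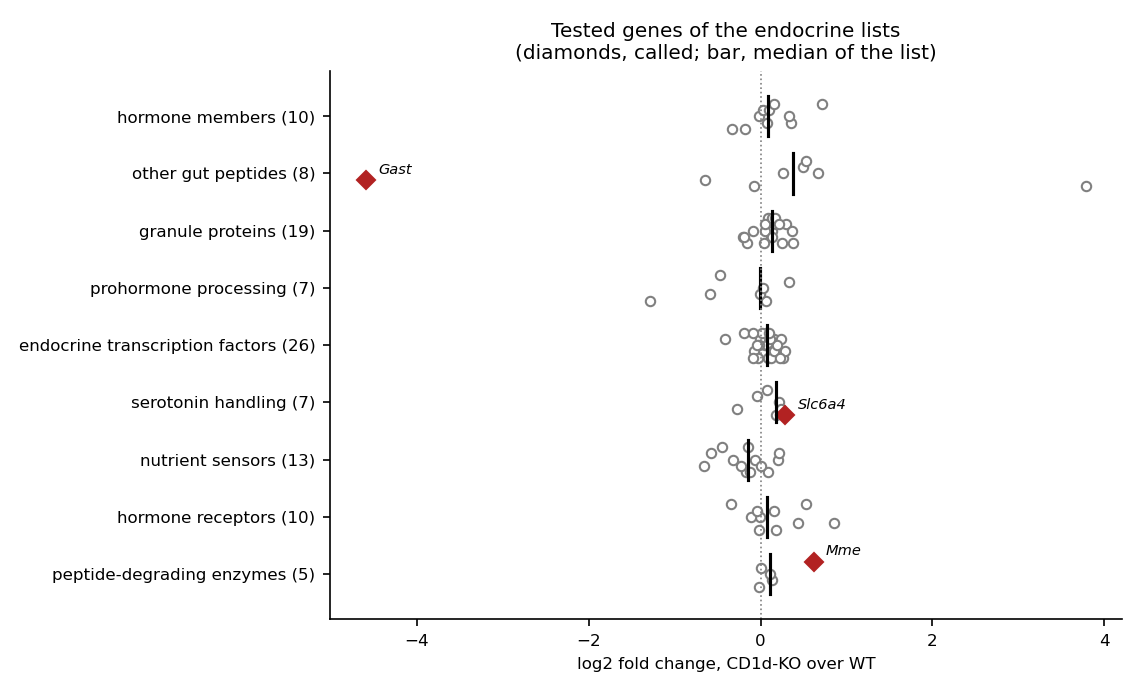
Log2 fold change of CD1d-KO over WT (horizontal axis) for each tested gene of 9 lists (rows, number of tested genes in brackets), with called genes as named red diamonds, other genes as open circles and the median of each list as a black bar. Gast is at -4.59, Slc6a4 at 0.29 and Mme at 0.62, and 0 of 10 hormone genes are called.

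Receptors and nutrient sensors of the endocrine system gave no call either. Of 25 receptor genes for the products of the members, 8 had no count in any sample, among them Glp2r, Cckar, Cckbr, Ntsr1 and Htr3a, and 0 of the 10 tested were called. The most extreme by test statistic were the somatostatin receptors Sstr5, at 49.8 ± 6.92 normalised counts in CD1d-KO and 34.3 ± 12.1 in WT (log2 fold change 0.53 ± 0.29, adjusted p = 0.396), and Sstr1, at 72.4 ± 30.8 and 53.2 ± 21.8 (0.44 ± 0.36, adjusted p = 0.635). Of 13 tested nutrient sensor genes, 0 were called and the median log2 fold change was -0.14. The short-chain fatty acid receptor gene Ffar3 stood at -0.45 ± 0.26 (adjusted p = 0.406) and Tas1r3, a subunit of the sweet and umami taste receptors, at -0.32 ± 0.21 (adjusted p = 0.512).

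The pattern of each member across the 8 samples was compared with that of 11721 genes having a mean normalised count of at least 50, by Pearson correlation of log2(normalised count + 1). The somatostatin receptor gene Sstr1 was the most like Sst, with r = 0.988 (Spearman's rho 1), followed by the ion channel gene Asic5 with r = 0.979. Ghrl had another member, Gip, as its nearest gene, with r = 0.966, and Gip itself was nearest to Alg2 with r = 0.984. Sct was near Plekhg6 with r = 0.976 and the granule gene Scg2 with r = 0.963. The nearest genes were Wsb1 for Nts (r = 0.966), Slc8a1 for Cck (r = 0.968), Agpat4 for Pyy (r = 0.964), Ldlrad3 for Gcg (r = 0.943), Tm4sf4 for Tph1 (r = 0.977) and Nsun4 for Tac1 (r = 0.977). Each value is the highest among 11721 genes over 8 samples sorted and sequenced alike, and it is given as a description only.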

How the data were processed

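The authors sorted IECs from 4 CD1d-KO and 4 WT mice, made poly(A) libraries with a KAPA mRNA kit and deposited a table of unnormalised fragment counts. Per the file headers, featureCounts 1.6.4 counted pairs of reads in the exons of each gene, using primary alignments, no strand and an mm10 gene annotation. The study's methods and the labels name HISAT2 alignment against GRCm39, which differs from that annotation, and this was not resolved here. Because strand was not used, reads of an antisense gene could be counted, but 0 exon bases of the members were shared with another listed gene. The table had 0 per-sample columns left unused. Columns were matched to samples by the description in the labels, and groups came from sample titles.

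The genotypes were compared in R 4.3.3 with DESeq2 1.42.0, the tool of the study's methods, with genotype as the only term and Benjamini-Hochberg adjustment over 15446 genes. Independent filtering removed 3638 genes of mean normalised count under 2.41, and Cook's rule removed 4. Errors are SE for log2 fold changes and SD for levels. FPKM was computed here from the counts, exon lengths and total counts. Alternatives were edgeR 4.0.16 with its quasi-likelihood test, other size factors and filters, each sample left out, terms for Y-linked counts (Ddx3y of at least 10), for a stomach score (mean centred log2 level of the stomach list) and for replicate number, and samples left out. Scripts were tested on simulated data. Replicates within a genotype differed by 9.73 to 37.2 times sampling noise (chi-square per degree of freedom), so none was a copy.

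The members and gene lists were chosen with earlier results of these data known. Named genes were the members, Cd1d1, each called gene of an endocrine list (at most 5), the 2 most extreme genes of each list, Chga, Chgb, Neurog3, Neurod1, Pcsk1, Pcsk2, Ddc, Slc18a1, Mboat4, Gast and Insl5, and the genes nearest to each member. Other named list genes, including Dpp4, Guca2a, Guca2b and Tph2, were chosen after their values were seen.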

Additional observations from a re-analysis of the deposited data

Results flagged for a closer look

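In 64 groups of 4 samples, 2 had a sample far from the rest by Dixon's test at the 95% level, where chance alone flags about 5% of groups. Pcsk2 was highest of the WT samples in WT 3, at 65.0 normalised counts, with 0.832 of the WT range lying between it and the next sample. Ffar3 was lowest of the CD1d-KO samples in CD1d-KO 2, at 43.8 normalised counts, with a gap of 0.880 of the CD1d-KO range. WT 3 also held the highest summed level of the stomach list. The causes of both values were not tested, and none of the 10 hormone genes had such a sample.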

How the results depend on the processing

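Across 21 alternatives for each member, 210 values in all, 178 kept both their direction and their side of the threshold, 29 changed sign without passing it and 3 passed it, all for Nts. The number of hormone genes called stayed at 0 under the alternatives except 4. It was 1 without the samples carrying Y-linked counts, 1 with the Y-linked term beside genotype, 1 with WT 4 left out as well and 1 for the Y-linked term itself. The genotype term beside the Y-linked term makes the same contrast as the comparison without those samples. Over all genes the count of calls was 622, and it became 228 with edgeR, 372 without the samples carrying Y-linked counts, 101 with the stomach score, 331 without WT 3 and WT 4, 300 without Y-linked counts and WT 4, and 323 to 646 when 1 sample was left out, lowest without CD1d-KO 2 (323), and also lower by more than 1.5 times without WT 1 (406) and without WT 2 (385). The last 2 sample choices and the Y-linked term in place of genotype were added after seeing the data. The values below changed sign unless stated, and the causes were not tested. Without the Y-linked samples, Cck was 0.10, Ghrl 0.35 and Pyy 0.00045, and Neurod1, Slc18a1 and Mboat4 were 0.21, 0.21 and 0.19. With the Y-linked term these were 0.10 for Cck, 0.35 for Ghrl, 0.21 for Neurod1, 0.21 for Slc18a1 and 0.18 for Mboat4. With WT 4 left out too, Ghrl was 0.33, Neurod1 0.10, Slc18a1 0.081 and Mboat4 0.037. With the stomach score Gcg was -0.18, Cck 0.028, Ghrl 0.95, Neurod1 0.50, Slc18a1 0.46, Pcsk2 2.53, Pdx1 0.45 and Ffar3 0.29. In that fit, without a change of sign, Gip became 1.03, Sst 1.09, Nts 1.61, Tph1 0.99, Tac1 0.86, Sct 0.40 and Pyy -0.63. Without WT 3 and WT 4, Sct was -0.17, Ghrl 0.28, Neurod1 0.021 and Pcsk2 0.37. Scaled to the granule and processing genes in place of all genes, Gip was -0.068, Sct -0.033 and Tac1 -0.0045. With 1 sample left out, the values ran from -0.43 to 0.10 for Cck, -0.23 to 0.19 for Ghrl, -0.15 to 0.26 for Gip, -0.18 to 0.28 for Sct, -0.050 to 0.32 for Tac1, -9.56e-05 to 0.37 for Tph1, -0.21 to 0.17 for Mboat4, -0.14 to 0.13 for Neurod1, -0.17 to 0.11 for Slc18a1 and -1.91 to 0.14 for Pcsk2.

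Same-numbered samples correlated at 0.285, 0.025, 0.221 and 0.004 in their deviations from the genotype means. The labels do not say which samples shared an experiment, and these values cannot decide it. With the replicate number as a block, 569 genes were called, 434 of them shared with the comparison without it, and 0 hormone genes were called. Of the named genes, Maoa gained a call with the block, at 0.21. In 2 of 4 CD1d-KO samples and 1 of 4 WT samples the best correlation was with the own number.

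With 4 samples a genotype, the 95% intervals of the fold of Gcg, Cck, Sst, Nts and Pyy reached beyond 2-fold in one direction, and the p-values measure the spread between these mice only.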

Other observations

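In the comparison without the samples carrying Y-linked transcripts, 372 genes were called, and 3 genes of the endocrine lists that are not among the named genes, chosen here after their values were seen, were among them. Guca2b, which encodes uroguanylin, had a log2 fold change of 0.81 (adjusted p = 1.2e-05 by DESeq2) against 0.50 with all samples. Iapp, the amylin gene, which some enteroendocrine cells express, stood at 0.98 (adjusted p = 0.0359) against 0.53. Dpp4 stood at 0.28 (adjusted p = 0.0299) against 0.13. Maoa, at 0.34 (adjusted p = 0.0124), was also called there, and Slc6a4 and Mme kept their calls at 0.35 (adjusted p = 0.0089) and 0.70 (adjusted p = 9.18e-05).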
